A study of Homo sapiens with 12 samples.

Results

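Cells already low in SAFB were compared with cells in which SAFB2 and SLTM had been lowered as well, and 6 of the 12 libraries entered that contrast. They were the 3 libraries of triple KD and the 3 libraries of SAFB1 KD, chosen by their sample titles. All came from Flp-In T-REx HEK293, a human embryonic kidney line engineered to take up an inducible transgene at a fixed site. Both groups received the small interfering RNA (siRNA) against SAFB, the gene of the SAFB1 protein. Triple KD cells received the siRNAs against SAFB2 and SLTM in addition, and SAFB1 KD cells received negative control siRNA in their place, so that both transfections held the same total amount. RNA was taken 2 days into the knockdown. Polyadenylated RNA was purified in repeated rounds and made into strand-specific libraries. The other 6 libraries, control siRNA and SLTM KD, served for reference levels, and knockdown of SAFB2 alone is not analysed here.

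SAFB1, SAFB2 and SLTM make up the scaffold attachment factor B family of nuclear proteins, which carry a DNA-binding SAP domain, an RNA-recognition motif and stretches rich in arginine and glutamate. They bind purine-rich RNA inside introns, including retrotransposon sequence and intronless gene copies. An intron that holds such a sequence on the sense strand can be cut short when splice sites and polyadenylation signals inside the insertion are used, which yields a transcript of the insertion at the cost of the host mRNA. The contrast asks what losing the remaining family members does once SAFB is low.

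The siRNAs define the groups, so their target sites are shown as the sense strands of the duplexes, without the overhanging bases. Capitals mark the bases that pair with the seed of the guide strand, its bases 2 to 8 from the 5′ end.
SAFB siRNA: ggaccaagaugAUCAGAAa
SAFB2 siRNA: ggacggucgugAUGGAUAa
SLTM siRNA: gcauuagaauaAUUCGUGa
The SAFB site lay in coding sequence of exon 12 of 21 at chr19:5654145-5654163 on the plus strand (GRCh38). The SAFB2 site lay in coding sequence of exon 13 of 21 at chr19:5598848-5598866 on the minus strand, and the SLTM site in coding sequence of exon 15 of 21 at chr15:58890402-58890420 on the minus strand. Each sense strand matched the annotated transcripts of 1 gene exactly. The closest site of the SAFB siRNA in SAFB2 transcripts held 4 mismatches, and the closest site of the SAFB2 siRNA in SAFB transcripts held 3.

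The libraries compared held 56856228 to 69495905 gene counts. Levels are given as CPM, the counts of a gene relative to the library total after scaling by TMM factors, and changes as log2 fold changes of triple KD over SAFB1 KD from an edgeR quasi-likelihood fit, with the standard error (SE) of the fit. A gene was called when its two-sided p, adjusted by the Benjamini-Hochberg method over all 26688 genes tested, was under 0.05. The series describes the 3 libraries of a group as biological replicates, and the p-values measure the spread among them. Triple KD stood apart from the other 9 libraries on the first principal component, which held 74.8% of the variance of expressed genes. Of the 8 HEK293-expressed marker genes all were detected, with a summed level of 1797 to 1847 CPM in SAFB1 KD and 1699.7 to 1722 CPM in triple KD, and 6 of the 8 fell.

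SAFB2 and SLTM fell as labelled, and SAFB itself fell somewhat further. SAFB2 stood at 207, 206 and 213 CPM in the SAFB1 KD libraries and at 28.2, 28.7 and 30.4 CPM in triple KD. SLTM stood at 135, 139 and 141 CPM and at 22.6, 25.8 and 26.6 CPM. The groups were far apart for both genes, with log2 fold changes of -2.84 ± 0.0280 (SE, adjusted p = 1.62e-63) and -2.47 ± 0.0365 (adjusted p = 1.83e-53). SAFB was at 45.6, 44.3 and 46.1 CPM in SAFB1 KD and at 36.9, 37.9 and 40.0 CPM in triple KD. These SAFB libraries did not overlap either, and the log2 fold change was -0.24 ± 0.0299 (adjusted p = 4.72e-10), a level of 84.4% of that in SAFB1 KD. The contrast therefore holds a further loss of SAFB beside the loss of SAFB2 and SLTM, and the shares of the 3 siRNAs in it cannot be told apart.

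SAFB2 and SLTM were lowered from a raised starting point, since SAFB1 KD held 166% of the control level of SAFB2 and 120% of that of SLTM. Summed over the family, the level was 474 ± 2.91 CPM in control cells (SD, n = 3). It was 393 ± 6.82 CPM in SAFB1 KD and 92.4 ± 4.64 CPM in triple KD, and SLTM KD held 396 ± 9.07 CPM. Triple KD thus held 23.5% of the family RNA of SAFB1 KD, while SAFB1 KD held 82.8% of that of control cells. SAFB and SAFB2 overlap at their starts on opposite strands of chromosome 19, so their levels rest on the strand assignment of reads. In RNA from a whole culture, fewer cells that express a gene and less RNA per cell cannot be told apart.

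**Figure D1:**
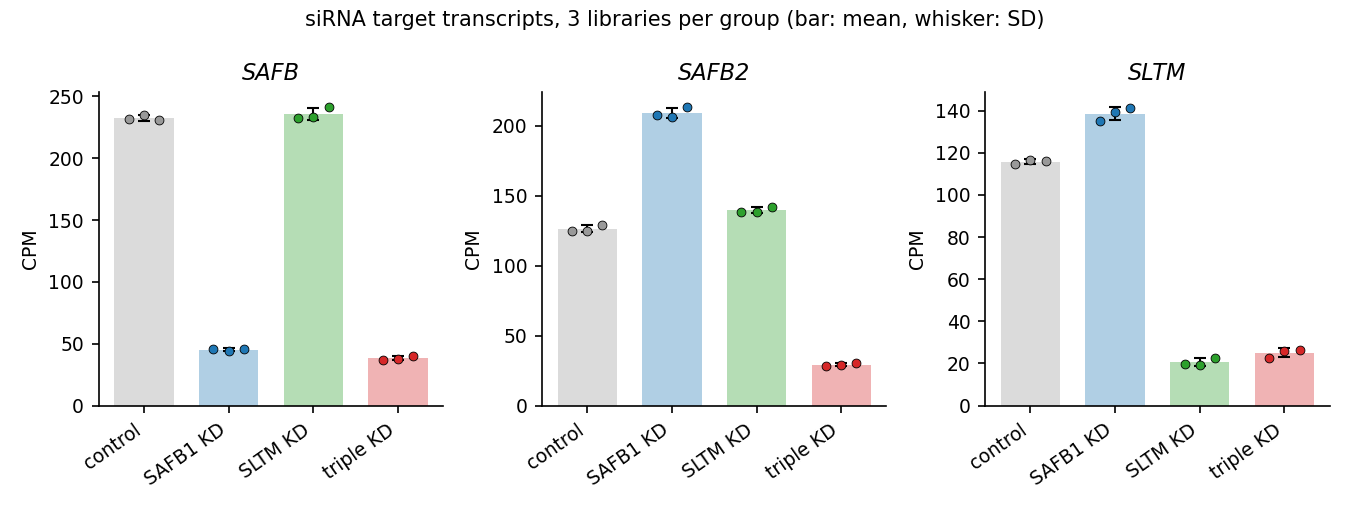
The y axes give the level in CPM from 0, with 1 panel and scale per siRNA target, and the x axes the 4 groups. Each point is a library, and bars and whiskers show the mean and SD of 3. SAFB2 is at its highest in SAFB1 KD, at 209 CPM, and falls to 29.1 CPM in triple KD, while SAFB goes from 45.3 to 38.2 CPM between those groups.

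Between SAFB1 KD and triple KD many genes changed by little and a small number by much. Among the 26688 genes tested, 4333 rose (16.2%) and 4975 fell (18.6%), which made 34.9% called. The median absolute log2 fold change of the called genes was 0.25, and 7118 of them (76.5%) changed by less than 0.5. A stricter test on the same fit, which asks for a change over 2-fold, called 71 genes higher (0.266%) and 43 lower (0.161%), 0.427% in all. DESeq2 with the same 2-fold threshold called 45 higher and 29 lower. In 11517 genes (43.2%) the 3 libraries of triple KD did not overlap the 3 of SAFB1 KD.

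**Figure D2:**
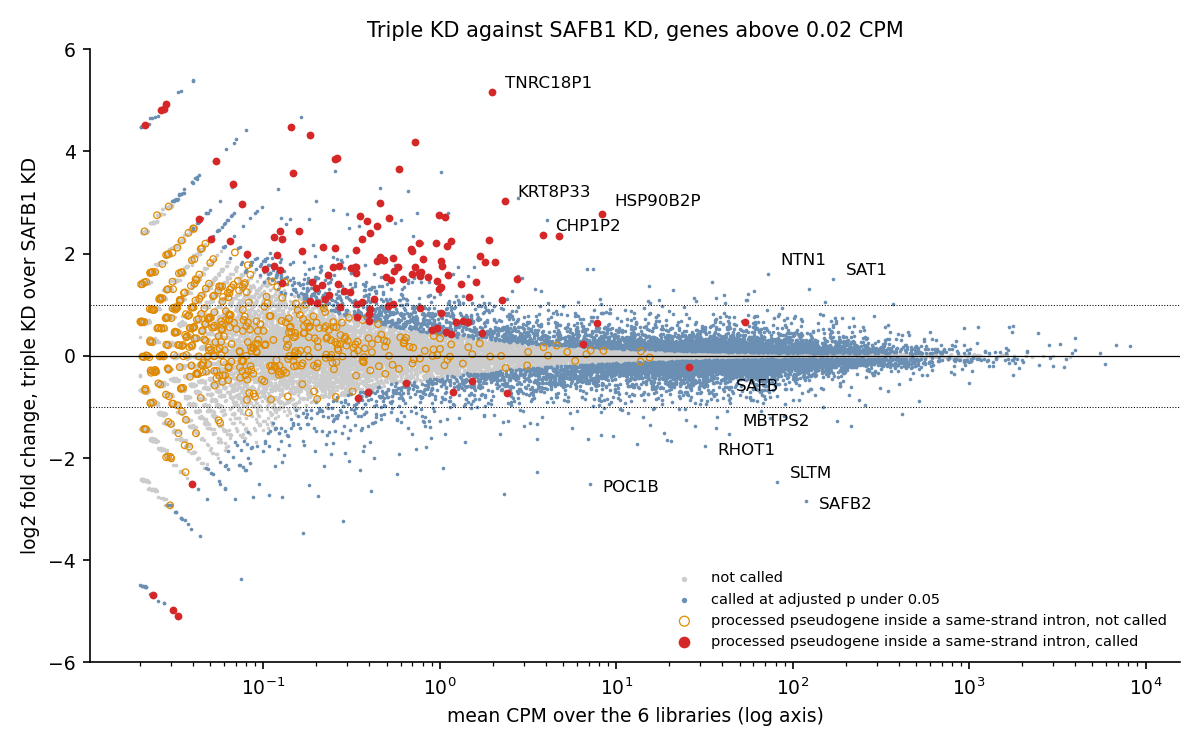
Log2 fold change of triple KD over SAFB1 KD (y axis) against the mean level over the 6 libraries in CPM (x axis, log scale) for the 24836 genes above 0.02 CPM. Blue points were called at an adjusted p under 0.05, and red points are called processed pseudogenes inside a same-strand intron; dotted lines mark 2-fold changes. The red points lie mostly above 0 at low levels, while SAFB2, SLTM, RHOT1 and POC1B lie far below it. Open orange circles are such pseudogenes that were not called.

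Among the genes with the largest log2 rises, most were intronless copies of other genes lying inside introns. Of the 12 genes with the highest log2 fold change and at least 1 CPM in either group, 8 were processed pseudogenes. These are copies of spliced mRNAs pasted back into the genome, and all 8 lay inside an intron of a gene on the same strand. All of the 8 but HSP90B2P and CHP1P2 reached 1 CPM in triple KD only, and such a minimum favours genes near 0 in SAFB1 KD. TNRC18P1, a copy of TNRC18 in an intron of TBC1D9 (chr4:140641840-140645489, minus strand), rose from 0.0920, 0.163 and 0.0532 CPM to 3.71, 3.68 and 4.18 CPM, a log2 fold change of 5.16 ± 0.216 (SE, adjusted p = 1.03e-29). It was the highest of the rule, and its level in SAFB1 KD was no higher than the 0.139 ± 0.0371 CPM of control cells (SD, n = 3).

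HSP90B2P, which copies the endoplasmic reticulum chaperone gene HSP90B1, lies within an LRRC28 intron (chr15:99257632-99260015, plus strand) and was the most abundant of the 8. It was listed at 2.36, 1.62 and 2.38 CPM in SAFB1 KD and at 14.5, 14.3 and 14.5 CPM in triple KD, a log2 fold change of 2.78 ± 0.0867 (adjusted p = 3.43e-36). Part of this rise was already present with SAFB low alone, since control cells held 0.262 ± 0.0502 CPM. KRT8P33, a copy of the keratin gene KRT8 in an intron of CEP120 (chr5:123400922-123402344, minus strand), was nearly constant within each group. Its libraries stood at 0.506, 0.505 and 0.514 CPM in SAFB1 KD and at 4.27, 4.09 and 4.18 CPM in triple KD (log2 fold change 3.03 ± 0.143, adjusted p = 4.77e-27).

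The other pseudogenes of this set were HMGB1P24 in ACACA (log2 fold change 4.18), PTMAP1 in ATAT1 (3.65), ASS1P2 in DHX57 (2.76), G3BP1P1 in ZRANB3 (2.72) and CHP1P2 in IGF2R (2.36). CHP1P2 rose from 1.38, 1.16 and 1.21 CPM to 5.76, 6.99 and 6.47 CPM. The remaining 4 of the 12 highest genes were CEP295NL, a protein-coding gene nested in an intron of TIMP2 (3.59), and the γ-protocadherin loci PCDHGB8P (3.22), PCDHGA10 (2.80) and PCDHGA12 (2.65). Levels of these genes in SAFB1 KD were low, at 0.0754 to 2.12 CPM, so the fitted changes of the lowest depend on the prior count.

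The GAAGAA hexamer is a purine-rich splicing enhancer word, and the stretch with the most bases in such words is shown for 4 of these pseudogenes. Each line is 30 bases of the sense strand, GAAGAA words are in capitals, and the sequences come from GENCODE transcripts on GRCh38.
HSP90B2P, chr15:99258549-99258578, plus strand: gcagtagagGAAGAAGAAGAAaaacagaaa
G3BP1P1, chr2:135511467-135511496, minus strand: GAAGAAgtagtagaggaacgtGAAGAAaag
TNRC18P1, chr4:140642584-140642613, minus strand: gaagattaaGAAGAAGAAgatggacagcga
KRT8P33, chr5:123401853-123401882, minus strand: gggctaggagaaactgaagctggaggcgga
HSP90B2P held 12 GAAGAA words over 2384 bases, overlapping words included, G3BP1P1 held 7 over 1398 bases and TNRC18P1 held 5 over 3650 bases. KRT8P33 held 0 over 1423 bases, and the line shown is its most purine-rich stretch, with 23 purines of 30 bases. The word was present in many pseudogenes that were not called. Of all 126 same-strand nested processed pseudogenes called higher, 66.7% held at least 1 GAAGAA in the sense strand, with a median of 1.36 words per kilobase, against 54.5% and 0.862 in the 618 not called. The 618 were less abundant, with a median of 0.0473 CPM against 0.458 CPM, and shorter, with a median of 598 bases against 869.5. Among same-strand nested processed pseudogenes with a mean of at least 0.2 CPM over the 6 libraries, the sense strand of 69.1% of the 97 called higher and of 61.8% of the 110 not called held at least 1 GAAGAA. Over pseudogenes at that level, the share was 64.1% where the host lay on the opposite strand only and 62.7% outside introns. No test of these shares was made, and copies high in triple KD can pass this minimum through that group. The median density was 1.46 words per kilobase in those called higher and 1.40 in those not called, and the median length was 844 and 650 bases.

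As a class, processed pseudogenes inside same-strand introns were called higher in a larger share than other processed pseudogenes, but in about the same share as all genes. Of 1984 in the annotation, 756 had enough counts to be tested, and 126 of these were called higher (16.7%) and 12 lower (1.59%), with a median log2 fold change of 0.49. The shares over all genes tested were 16.2% and 18.6%, and the share called in either direction was 18.3% in these copies against 34.9%. Of the 483 tested with a host on the opposite strand only, 16 were called higher and 11 lower (median 0.08), and of the 1198 not nested, 85 and 31 (median 0.13). The median over all genes tested was 0.00. In the test for a change over 2-fold, same-strand nested processed pseudogenes were 35 of the 71 genes called higher and 0 of the 43 called lower. With a mean of at least 0.2 CPM over all 12 libraries, 85 of 187 same-strand nested copies were called higher, 9 of 126 with a host on the opposite strand only and 56 of 299 not nested. Copies that are on in triple KD only can pass either minimum through that group, and reads that fit a copy and its parent equally well are not in these counts.

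Most host genes of these copies fell. Among the 47 same-strand nested processed pseudogenes that were called higher and reached 1 CPM in triple KD, each lay in a different host. That minimum was applied in triple KD only, the group in which these copies are high. Of these 47 hosts, 34 were called lower, 6 higher and 7 were not called, with a median log2 fold change of -0.21. Of all 615 tested hosts of same-strand processed pseudogenes, 117 were called higher and 201 lower (median -0.05), and of all 16028 protein-coding genes, 3303 were called higher (20.6%) and 4485 lower (28.0%). Among protein-coding genes at 3 CPM or more with an annotated 3′ UTR of at least 50 bases, the shares were 26.3% higher and 36.5% lower. Of the 115 tested hosts of such copies called higher at any level, 72 were called lower and 19 higher (median -0.16). The 615 include the 115, and the 115 include the 47.

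The size of the host's change varied widely. ZRANB3, a DNA translocase that acts at stalled replication forks and the host of G3BP1P1, went from 10.5, 10.4 and 10.7 CPM to 3.43, 3.28 and 3.49 CPM (log2 fold change -1.63 ± 0.0720, adjusted p = 1.63e-28). LRRC28, the host of HSP90B2P, went from 12.4, 12.96 and 11.2 CPM to 4.06, 4.32 and 4.15 CPM (-1.55 ± 0.0667, adjusted p = 4.86e-29). In both genes triple KD held about the same level in its 3 libraries, far under the lowest SAFB1 KD library. TMEM222, the host of ACTG1P20, fell by 1.36 on the log2 scale, and DHX57, the host of ASS1P2, by 0.63. By contrast CEP120, the host of KRT8P33, fell by 0.18 and TBC1D9, the host of TNRC18P1, by 0.11. The call of TBC1D9 was lost without SAFB1 KD replicate 2 (adjusted p = 0.0554). TBC1D9 fell from 46.3 to 42.8 CPM on average, a level near the 43.2 CPM of control cells. ACACA, which encodes acetyl-CoA carboxylase and hosts HMGB1P24, was not called (0.04 ± 0.0226, adjusted p = 0.140), and IGF2R, the host of CHP1P2, rose by 0.19.

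Parent genes changed in both directions. A parent with counts was matched by symbol for 41 of the 47 copies, which came from 35 parents. Of these 35 parents 7 were called higher, 17 lower and 11 were not called, with a median log2 fold change of -0.04 and a range of -0.57 to 0.46. The shares over all protein-coding genes were 20.6% higher and 28.0% lower. At 3 CPM or more with an annotated 3′ UTR of at least 50 bases, they were 26.3% and 36.5%. HSP90B1 was at -0.00 (adjusted p = 0.969), KRT8 fell by 0.10 and TNRC18 rose by 0.46. The order of the copies, their hosts and their parents is shown in the plot of the 47 pairs.

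**Figure D3:**
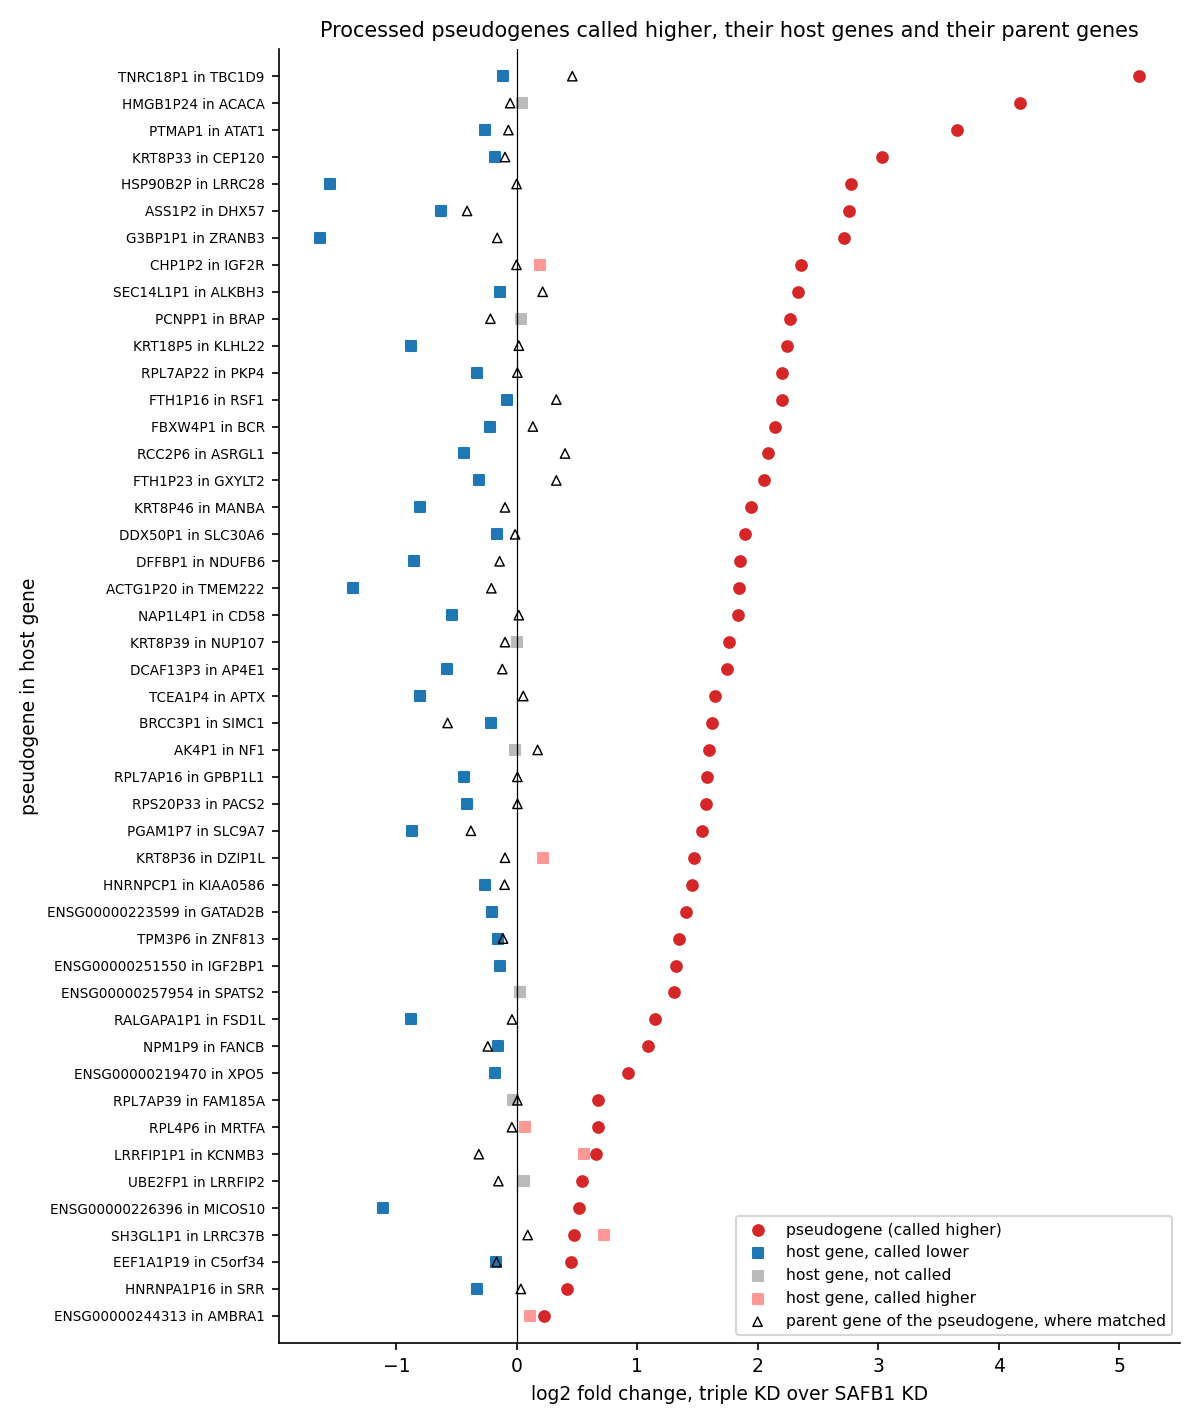
Log2 fold change of triple KD over SAFB1 KD (x axis) for 47 same-strand nested processed pseudogenes called higher and at 1 CPM or more in triple KD (red circles), with their host genes (squares, coloured by call) and parent genes (open triangles, where matched), 1 pair per line. The 34 blue squares are hosts called lower, and all parents lie between -0.57 and 0.46.

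Functional retrogenes in introns gave a mixed picture. This list and the list of their hosts were taken from the study, which chose them on RNA of these cells, so their direction is not independent evidence. YY2, a retrogene of the zinc-finger factor gene YY1 in an intron of MBTPS2, rose from 3.60, 3.16 and 2.84 CPM to 11.2, 11.01 and 9.26 CPM (log2 fold change 1.71 ± 0.0834, adjusted p = 2.48e-26), from 1.91 ± 0.119 CPM in control cells. MBTPS2, which encodes the site-2 protease that releases sterol-regulated transcription factors, fell from 64.3, 66.2 and 65.0 CPM to 22.2, 22.8 and 22.4 CPM (-1.54 ± 0.0348, adjusted p = 1.13e-43). The retrogene rose and its host fell with no overlap of libraries in either. RBMXL1, an intronless copy of the splicing factor gene RBMX, rose by 0.40, and KYAT3 fell by 1.35. UTP14C fell by 0.27 while ALG11 rose by 0.33, the opposite of the pair YY2 and MBTPS2, and the call of UTP14C was lost without SAFB1 KD replicate 1.

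POC1B, which encodes a centriole protein, was the lowest host of that list. It stood at 11.7, 12.4 and 12.02 CPM in SAFB1 KD and at 2.12, 2.12 and 2.10 CPM in triple KD (log2 fold change -2.51 ± 0.0721, adjusted p = 4.81e-38), against 21.8 ± 0.688 CPM in control cells. The level thus dropped at both steps. GALNT4, the retrogene paired with it, was at 0.506, 0.371 and 0.372 CPM and at 0.735, 0.563 and 0.568 CPM, and was not called (adjusted p = 0.0764). The libraries of the groups did not overlap, but at these low levels gene counts cannot settle whether the retrogene rose. The study ascribes the loss of POC1B to splicing interference and early termination by this retrogene.

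Genes that the study names as hosts of bound transposable elements also mostly fell, 5 of 7 lower and 1 higher, and this list too was chosen on these cells. Over all protein-coding genes tested, 28.0% were called lower and 20.6% higher. At 3 CPM or more with an annotated 3′ UTR of at least 50 bases, the shares were 36.5% and 26.3%. RB1, the retinoblastoma tumour suppressor, went from 127, 126 and 118 CPM to 55.2, 54.1 and 54.0 CPM (log2 fold change -1.19 ± 0.0284, adjusted p = 2.62e-42). CENPQ, a centromere protein, fell by 0.86, HIBADH, an enzyme of valine breakdown, by 0.74 and LONRF3 by 0.58. RAD54L2, a chromatin remodeller, rose by 0.84 from 29.3 to 52.6 CPM, the 1 member that moved the other way. Transposable elements themselves have no entries in gene counts.

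Among protein-coding genes at 10 CPM or more, the highest beside YY2 were NTN1 and SAT1. NTN1, the guidance cue netrin-1, rose from 35.6, 35.3 and 36.1 CPM to 112, 107 and 108 CPM (log2 fold change 1.61 ± 0.0307, adjusted p = 1.34e-47). SAT1, the rate-limiting enzyme of polyamine breakdown, rose from 86.5, 86.8 and 93.7 CPM to 238, 258 and 259 CPM (1.501 ± 0.0284, adjusted p = 1.09e-47). Triple KD was the outlying group for both, with control cells at 32.9 and 89.7 CPM. DNMT3B, a de novo DNA methyltransferase, rose from 18.8 to 51.1 CPM on average and MET, the receptor of hepatocyte growth factor, from 71.8 to 177 CPM. CCND3, the cell-cycle gene of cyclin D3, rose by 1.19.

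RBPJ, the DNA-binding factor of the Notch pathway, and JAG1, a Notch ligand, were both in this set. RBPJ went from 35.9, 35.5 and 35.1 CPM to 87.8, 88.8 and 81.3 CPM (log2 fold change 1.28 ± 0.0333, adjusted p = 3.01e-40). JAG1 went from 23.5, 24.4 and 21.1 CPM to 51.4, 49.9 and 50.8 CPM (1.14 ± 0.0389, adjusted p = 4.02e-34). WSB1, a substrate receptor of a ubiquitin ligase, rose by 1.22, GPCPD1, an enzyme of glycerophosphocholine breakdown, by 1.13 and BOD1, which acts in chromosome biorientation, by 1.09. GPCPD1 and BOD1 did not pass the test for a change over 2-fold (adjusted p = 0.0674 and 0.142).

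**Figure D4:**
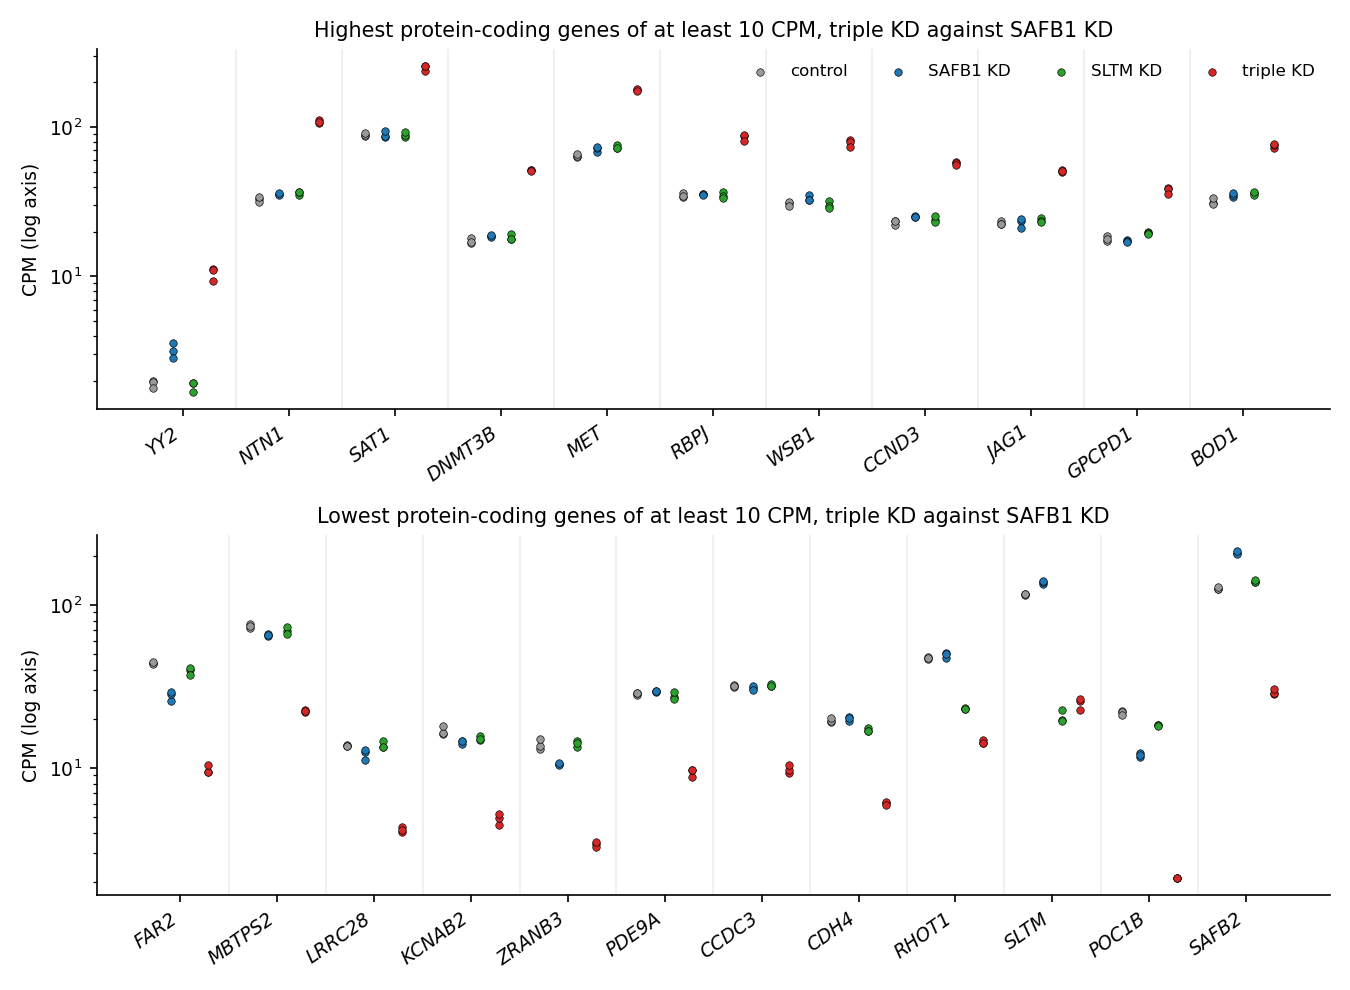
Levels in CPM (y axis, log scale) of protein-coding genes of at least 10 CPM, those named in the text from the 12 highest and all of the 12 lowest, in triple KD against SAFB1 KD (x axis), 3 libraries for each of the 4 groups. Triple KD stands apart from the other groups for most genes shown. For RHOT1 the SLTM KD libraries, at a mean of 23.2 CPM, lie between SAFB1 KD and triple KD, and for SLTM they lie with triple KD.

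Beside the siRNA targets and the hosts already named, the lowest protein-coding genes at 10 CPM or more were RHOT1, CDH4, CCDC3, PDE9A, KCNAB2 and FAR2. RHOT1, the mitochondrial transport GTPase Miro1, fell from 47.3, 51.0 and 49.8 CPM to 14.2, 14.8 and 14.3 CPM (log2 fold change -1.77 ± 0.0386, adjusted p = 1.49e-44). CDH4, which encodes R-cadherin, fell by 1.73, CCDC3 by 1.66 and PDE9A, a phosphodiesterase for cyclic GMP, by 1.65. FAR2, a fatty acyl-CoA reductase, fell from 27.7 to 9.78 CPM on average (-1.502 ± 0.0492, adjusted p = 3.97e-35), after 43.9 CPM in control cells. KCNAB2, a potassium channel subunit, fell by 1.56. At lower levels, CEACAM19 fell by 2.28 (5.93 to 1.23 CPM), CCDC102B by 1.82 (1.16 to 0.321 CPM) and SYNDIG1, a synaptic membrane protein gene, by 1.63 (5.40 to 1.75 CPM). The long noncoding RNA DNAH10OS, inside an intron of CCDC92, fell from 3.94, 4.29 and 3.72 CPM to 0.788, 0.534 and 0.537 CPM (-2.70 ± 0.145, adjusted p = 1.98e-24). This fall started from a raised level, since control cells held 1.74 CPM of DNAH10OS on average. SLTM KD alone held 0.495 CPM, a level near that of triple KD. CCDC92 was not called (-0.09 ± 0.0526, adjusted p = 0.225).

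The step from SAFB1 KD to triple KD was then set against the step from control to SLTM KD, to see which changes differed from those of SLTM loss with SAFB intact. The steps share no library. Of the 2471 genes called in SLTM KD against control, 1847 (74.7%) were also called in triple KD against SAFB1 KD, 1649 of them in the same direction. They made up 19.8% of the 9308 genes called between triple KD and SAFB1 KD. The share of all genes called was itself high: among the 11389 genes at 5 CPM or more in SAFB1 KD or triple KD, 63.6% were called in triple KD against SAFB1 KD, and among the 2173 of these called in SLTM KD, 77.7% were. Across genes, which are not independent replicates, the log2 fold changes of the steps had a Pearson r of 0.0981 and a Spearman rho of 0.182 over all genes tested, and 0.441 and 0.420 at 5 CPM or more. In the test of the difference of the steps, 2529 genes were called higher (9.48%) and 3184 lower (11.9%), 21.4% in all, where higher means a more positive change from SAFB1 KD to triple KD.

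SLTM itself fell alike in both steps, with a difference of 0.03 on the log2 scale. SRSF1, a splicing factor of the SR family, fell by 0.59 from SAFB1 KD to triple KD and by 0.55 from control to SLTM KD, and the difference of -0.04 ± 0.0685 was not called (adjusted p = 0.760). For RHOT1 the fall was 1.03 with SLTM alone, from 47.4 ± 0.582 to 23.2 ± 0.145 CPM (SD, n = 3), and larger by 0.74 in the triple step (adjusted p = 6.42e-18). CENPQ fell by 0.53 with SLTM alone and by 0.86 in the triple step, a difference of -0.33 (adjusted p = 1.91e-06). These genes had a sizeable change in SLTM KD. For SAT1 the change with SLTM alone was -0.01 ± 0.0297 and the difference of the steps 1.51 (adjusted p = 9.82e-39), for MBTPS2 they were -0.09 ± 0.0299 and -1.45 (adjusted p = 3.85e-35), and for HSP90B2P 0.34 ± 0.288 and 2.44 (adjusted p = 7.43e-09).

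Genes of RNA processing changed in both directions. For these and the later lists, the shares over all protein-coding genes tested were 20.6% called higher and 28.0% lower. Over those at 3 CPM or more with an annotated 3′ UTR of at least 50 bases, they were 26.3% and 36.5%. Most list counts are to be read beside these shares, since lists were not tested. The 14 SR and TRA2 genes, activators of splicing, held 9 called lower and 1 higher (median log2 fold change -0.09), with TRA2A lower by 0.36 and SRSF8 by 0.38. SRSF5 was the exception and rose by 0.23. Of 24 hnRNP genes, 7 were called higher and 9 lower, with SYNCRIP at -0.24 and HNRNPUL1 at 0.19, and with upper-quartile scaling or without SAFB1 KD replicate 1 the number lower was 5. Of 21 cleavage and polyadenylation factors, 8 were called higher and 3 lower (median 0.06), among them CPSF1 at 0.16 and PAPOLA, the poly(A) polymerase, at -0.17. Upper-quartile scaling gave 13 higher. Of 15 genes of the m6A pathway, 5 were called higher and 6 lower, and ZC3H13, a subunit of the methyltransferase complex, fell from 154 to 98.4 CPM (-0.65 ± 0.0229, adjusted p = 1.87e-33). Of 17 mRNA export factors, 7 were called higher and 4 lower, with DDX39A at 0.37 and THOC1 at -0.33.

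Among 5 proteins that the study places with SAFB, 3 were called higher and 0 lower, a list likewise drawn from the study. RBM12B rose by 0.46, RBMXL1 by 0.40 and RBMX by 0.05, and ZNF638 and NCOA5 were not called. Of 9 genes with giant coding exons, also named by the study, 3 were called higher and 4 lower. The study describes splicing of the giant exon, which counts over a whole gene do not show. The ankyrin genes ANK2 and ANK3 rose by 0.48 and 0.31, and MAPT, which encodes tau, fell by 0.42.

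Genes that hold transposable elements in check, and genes derived from such elements, mostly moved by small amounts. Of 15 genes of the HUSH complex and histone H3K9 methylation, 7 were called higher and 3 lower (median 0.02). ATF7IP and TASOR each rose by 0.23, and MPHOSPH8 fell by 0.21. Of 14 L1 restriction factors, 5 were called higher and 1 lower, where APOBEC3B, a cytidine deaminase, rose by 1.17 from 0.533 to 1.19 CPM and SAMHD1 by 0.16. RNASEH2C was the member called lower, at -0.19, and 2 were lower without SAFB1 KD replicate 2. Of 12 genes derived from Tigger and pogo elements, 3 were called higher and 2 lower, with JRK at 0.44 and TIGD1 at 0.32.

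Clustered protocadherin genes, which encode cell-surface adhesion proteins from alternative first exons, rose without exception among those called. Of 23 tested, 11 were called higher and 0 lower, with a median log2 fold change of 0.39, and their summed level was 39.0 to 41.1 CPM in SAFB1 KD and 53.2 to 54.5 CPM in triple KD. PCDHGB6 rose from 1.61, 1.26 and 1.33 CPM to 3.87, 4.55 and 4.04 CPM (1.57 ± 0.126, adjusted p = 1.54e-16) and PCDHGC3 from 25.8 to 30.6 CPM on average. Of the 11, 9 lay in the γ cluster. The γ genes share their last exons, and 14 of the 23 had a mean under 1 CPM in both groups.

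All 13 protein-coding genes of the mitochondrial genome rose, by 0.12 to 0.58 on the log2 scale. MT-ND3, a subunit of respiratory complex I, rose from 761, 742 and 777 CPM to 1067, 1123 and 1143 CPM (0.55 ± 0.0210, adjusted p = 1.16e-31), and MT-CO2, a subunit of complex IV, rose least. The share of counts on the mitochondrial genome was 3.53% ± 0.138 in SAFB1 KD and 4.35% ± 0.212 in triple KD (SD, n = 3), against 3.49% ± 0.159 in control cells and 4.03% ± 0.191 in SLTM KD. Of 53 cytosolic ribosomal protein genes, 4 were called higher and 27 lower (median -0.05), and upper-quartile scaling gave 8 and 14. RPL24 fell by 0.21 and RPS10, at 3.57 CPM in SAFB1 KD, rose by 0.36.

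Heat shock chaperones mostly fell, with 12 of 17 called lower and 4 higher (median -0.12). Over protein-coding genes at 3 CPM or more with an annotated 3′ UTR of at least 50 bases, 36.5% were called lower and 26.3% higher. HSPA8, the constitutive Hsp70, went from 1965, 2014 and 2064 CPM to 1524, 1562 and 1574 CPM (-0.37 ± 0.0171, adjusted p = 7.77e-28). HSPA4L fell by 0.56 and CHORDC1 by 0.43, and HSPB1, a small heat shock protein, rose by 0.38. Mitotic genes mostly rose, with 14 of 25 G2/M genes called higher and 3 lower (median 0.06). TOP2A, the DNA topoisomerase of chromosome condensation, rose by 0.29 and ECT2, an activator of cytokinesis, fell by 0.36. Of 23 kinetochore and centromere genes, 10 were called higher and 3 lower, and the largest changes ran against the majority: CENPK went from 42.1, 42.0 and 43.4 CPM to 23.0, 23.6 and 22.05 CPM (-0.89 ± 0.0369, adjusted p = 7.17e-30), whereas CENPH rose by 0.58.

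**Figure D5:**
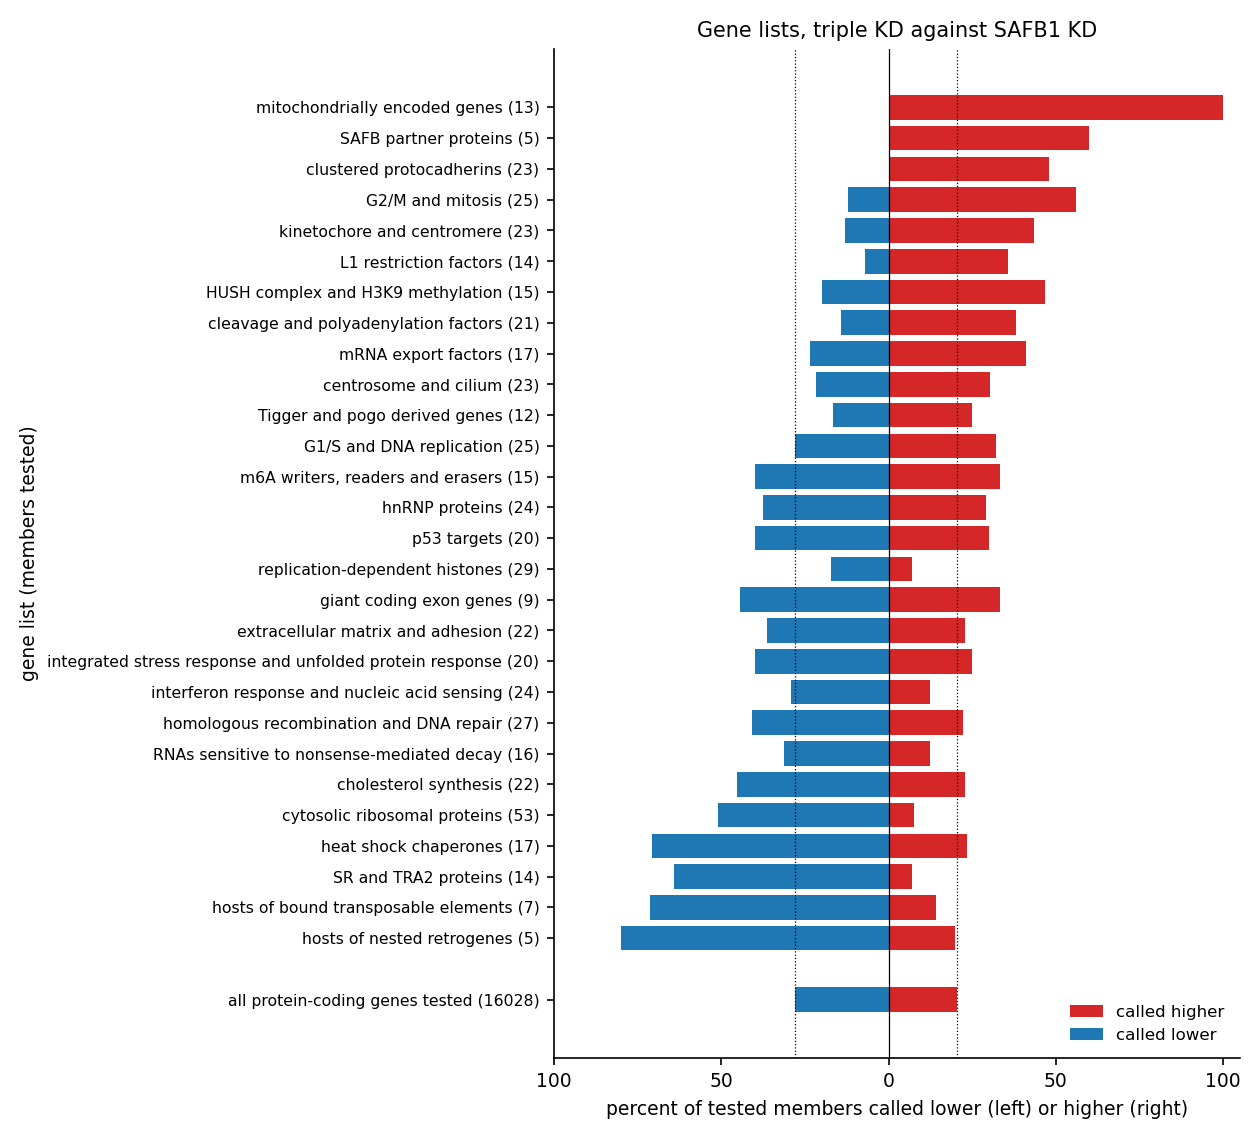
Percent of the tested members of each gene list called lower (blue, left) and higher (red, right) in triple KD against SAFB1 KD, for lists of at least 5 tested members (numbers in brackets), lists of cell type markers left out. Dotted lines and the lowest bar give all 16028 protein-coding genes tested, of which 20.6% were called higher and 28.0% lower. The mitochondrially encoded genes were all called higher, and hosts of nested retrogenes, hosts of bound transposable elements and heat shock chaperones were called lower most often among the lists plotted.

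Matches to the siRNA seeds were counted in annotated 3′ UTRs, because triple KD cells hold a pair of siRNAs that SAFB1 KD cells lack. Among 11329 protein-coding genes at 3 CPM or more whose annotated 3′ UTR spans 50 bases or more, 26.3% were called higher and 36.5% lower. Of the 1256 genes with a match to the SAFB2 siRNA seed (the bases ATGGATA in the UTR sense strand), 20.4% were called higher and 51.0% lower, with a median log2 fold change of -0.10, against 34.7% lower and a median of -0.02 in the 10073 without it. The 201 genes with at least 2 matches were called lower in 59.2%. Genes with the SAFB2 word had median changes of -0.01 in SAFB1 KD and -0.01 in SLTM KD, each against control. For the SLTM seed (ATTCGTG), 41.9% of 272 genes with a match were called lower against 36.4% without. For the SAFB seed (ATCAGAA), whose siRNA both groups received, these were 41.1% of 2120 genes and 35.4%. Genes with a match had longer 3′ UTRs, with a median of 3641 bases against 1301 for the SAFB2 seed, and the part of length or of seed pairing in these shares was not tested.

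Other cell types left little trace in either group. The 4 tested male germ cell markers summed to 0.134 to 0.215 CPM in SAFB1 KD and 0.158 to 0.217 CPM in triple KD with 0 called, and DAZL, PRM1, PRM2, TNP1 and ACRV1 fell under the count minimum. Leukocyte markers summed to 2.004 to 2.80 and 1.86 to 2.27 CPM, squamous epithelium markers to 0.980 to 1.19 and 1.44 to 1.66 CPM and fibroblast markers to 13.9 to 15.7 and 13.95 to 15.0 CPM. Each of these had 1 member called higher (PTPRC at 0.0410, KRT13 at 0.886 and COL3A1 at 2.34 CPM in triple KD), and each such call was lost without SAFB1 KD replicate 1 or 2. Colon epithelium markers, which include the widely expressed EPCAM, summed to 155 to 159 and 150.2 to 152 CPM, and CDX2 fell by 0.10, a call lost with DESeq2 and limma-voom. Neuronal markers summed to 246 to 258 CPM and 176 to 179 CPM, with 4 of 10 called lower and 1 higher. NEFL, a neurofilament gene that HEK293 cells express, made up most of that sum and fell from 223 to 147 CPM on average.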

How the data were processed

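The deposited values are raw read counts per gene, 1 file per library. By the study's methods, the authors trimmed reads with cutadapt, aligned them with STAR 2.7.9a to GRCh38 using GENCODE models, and counted uniquely placed reads on the reverse strand. Of 58780 gene IDs, 58207 were found in GENCODE 44 on the same build, which gave symbols, classes and introns. A nested gene lies wholly inside 1 intron of an annotated host transcript. A gene entered the fit with 10 or more counts in the sum of all 12 libraries.

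Counts of all 12 libraries were fitted with edgeR 4.0.16 in R 4.3.3 (TMM factors, quasi-likelihood, Benjamini-Hochberg), with glmTreat for changes over 2-fold. DESeq2 1.42.0 and limma 3.58.1 were alternatives, and tables were made in Python 3.11.15. The coefficient of variation between replicates beyond counting error was 2.14%. Counts were also simulated for this contrast (25355 genes), with 200 genes changed, all drawn from those at 1 CPM or more in SAFB1 KD. The fit recovered 92% of 100 genes changed by 0.5 on the log2 scale and 100% of 100 changed by 1, with 17 false calls. Recovery at lower levels, where most of the named pseudogenes stood in SAFB1 KD, was not simulated. Nor was a contrast with as many changed genes as the real one.

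Named genes were called, with libraries of the groups not overlapping: the 12 highest and 12 lowest at 1 CPM or more, the 12 highest and 12 lowest protein-coding genes at 10 CPM or more, siRNA targets, same-strand hosts, called list members of smallest adjusted p with those against the majority, and the 6 highest and 6 lowest in the difference of steps. The CPM minimums of this rule applied to the higher of the group means compared. Genes named beyond this rule were chosen after their values were seen. The contrast, gene lists and rule were chosen with earlier results of these data known. Lists were counted, not tested. An item that the rule selects is not reported here.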

Additional observations from a re-analysis of the deposited data

Results flagged for a closer look

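The change from SAFB1 KD to triple KD was tested against that from control to SLTM KD by a contrast of group means in the edgeR fit. In that test 2529 genes were higher and 3184 lower in the former step. The former step also adds the SAFB2 siRNA, so loss of SAFB2 and loss of SLTM with SAFB low cannot be told apart in it. Of the genes named from that test, the difference on the log2 scale was 4.82 ± 0.754 (SE) for HMGB1P24, 4.33 ± 0.700 for CEP295NL and 3.82 ± 0.485 for TNRC18P1. It was 3.73 ± 0.680 for PTMAP1, 2.90 ± 0.325 for KRT8P33 and 2.61 ± 0.567 for G3BP1P1. All of these are nested in introns of a host on the same strand. Each reached 1 CPM in triple KD only, and such a minimum favours genes near 0 in the other groups. HMGB1P24 and CEP295NL were at 0.0442 and 0.0447 CPM in SLTM KD, so their differences rest on few reads. The difference was -2.99 for SAFB2, an siRNA target in triple KD alone, -2.25 for POC1B, -2.08 for CEACAM19, -1.89 for CCDC102B, -1.73 for SEMA5B and -1.68 for CCDC3. TNRC18P1 had itself changed in SLTM KD against control, by 1.34 ± 0.322 (adjusted p = 0.00252).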

How the results depend on the processing

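The number of genes called between triple KD and SAFB1 KD stayed within 1.5 times under the alternative settings. These were upper-quartile and RLE scaling, other minimums, a fit of the 6 libraries alone, DESeq2, limma-voom and fits without each library. Without each library in turn, 3832 to 4622 genes were called higher and 4222 to 4944 lower. Upper-quartile scaling moved the share of called genes that were higher from 46.6% to 55.9% (5222 higher, 4126 lower), with a shift of the median from 0.00 to 0.04. Over 2-fold, DESeq2 called 45 genes higher, and counting called genes by a fitted change of at least 2-fold gave 554 higher and 286 lower, since that count takes no account of the error of the fold. Without each library, 64 to 79 were higher and 35 to 43 lower, and the difference of the steps gave 2310 to 2707 and 2558 to 3077. SAFB2 was at -2.87 to -2.82, SLTM at -2.51 to -2.395 and SAFB at -0.28 to -0.21. ACACA, not called, was called higher with filterByExpr (adjusted p = 0.0440), with upper-quartile scaling (0.00420) and without SLTM KD replicate 3 (0.0455). No gene named by the rule changed sign.

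Whether replicate numbers pair the samples was left unsettled, and the main fit used no pairing. Deviations of same-numbered libraries correlated at 0.155, 0.00986 and 0.193 over 11307 genes. SAFB1 KD replicates 1 and 3 correlated best with the triple KD library of the same number. SAFB1 KD replicate 2 correlated best with triple KD replicate 1, at 0.0687. With the replicate number as a block, 4545 genes were called higher and 5209 lower.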

Other observations

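Stress and damage lists held changes in both directions. Over all protein-coding genes tested, 20.6% were called higher and 28.0% lower. At 3 CPM or more with an annotated 3′ UTR of at least 50 bases, these shares were 26.3% and 36.5%. Of 20 genes of the integrated stress and unfolded protein responses, 5 were called higher and 8 lower. PDIA4, a disulfide isomerase of the endoplasmic reticulum, rose from 206, 209 and 218 CPM to 366, 364 and 361 CPM (log2 fold change 0.79 ± 0.0220 SE, adjusted p = 1.33e-38). DNAJB9, a cochaperone of that compartment, fell from 23.0, 22.1 and 20.1 CPM to 10.1, 10.7 and 10.97 CPM (-1.04 ± 0.0536, adjusted p = 3.70e-25), and ATF4, the response's transcription factor, fell by 0.33. Of 20 p53 targets, 6 were called higher, among them CDKN1A at 0.32, and 8 lower, among them ZMAT3 at -0.59, AEN at -0.37 and MDM2 at -0.31. Of 27 genes of homologous recombination and repair, 6 were called higher and 11 lower, with XRCC4 at 0.59 and ATR at -0.35. Of 24 interferon and nucleic acid sensing genes, 3 were called higher and 7 lower, with OAS3 at 0.49 and STAT2 at -0.46, and 5 were higher without triple KD replicate 2. Of 16 RNAs sensitive to nonsense-mediated decay, 2 were called higher and 5 lower, and upper-quartile scaling gave 5 higher.

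Of 25 genes of G1/S and replication, 8 were called higher and 7 lower, with E2F2, an activator of S-phase genes, rising by 0.75 from 32.4 to 54.5 CPM and DSCC1 falling by 0.34. Of 23 centrosome and cilium genes, 7 were called higher and 5 lower, with PCNT at 0.33, and 3 were lower without SAFB1 KD replicate 1 or without triple KD replicate 2. Of 29 tested replication-dependent histone genes, 2 were called higher and 5 lower, among them H1-2 at -0.61, and 4 were higher without triple KD replicate 3. Most histone mRNAs lack a poly(A) tail. Of 22 cholesterol synthesis genes, 5 were called higher and 10 lower, with MSMO1 falling by 0.74, and of 22 genes of extracellular matrix and adhesion, 5 and 8, with FN1, which encodes fibronectin, rising by 0.50.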
